A study of Mus musculus with 12 samples.

Results

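The genes described here make or remove the short-lived oxidants of the gut wall: Nos2, which makes nitric oxide, Duox2 and its maturation factor Duoxa2, Nox1 and its organizer Noxo1, the phagocyte oxidase genes Cybb and Ncf1, and the glutathione peroxidase Gpx2. They were taken by gene symbol from the platform annotation, each through the probe set that carried that symbol alone and had the highest mean over the 12 arrays. Of the 8 genes, 6 had such a probe set, out of 22180 genes named on the array. All 6 lay above the level below which genes were left out (the lowest 25% by mean, under a log2 signal of 3.65), so they stood among the 16635 genes tested. Duoxa2 was represented only on a probe set shared with its neighbour Duoxa1, and Noxo1 only on one shared with Tbl3. No level is given for these 2 genes.

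Gene expression was measured on 12 single-colour Affymetrix arrays from colorectal tumors that azoxymethane and dextran sulfate sodium (AOM/DSS), a carcinogen and an agent that inflames the colon, had induced in mice. All 4 groups had this treatment, with 3 samples each. Stat3wt tumor and Stat3wt stroma came from wild-type mice. Stat3dm tumor and Stat3dm stroma came from mice in which Stat3, the gene of a cytokine-activated transcription factor, had been conditionally deleted in myeloid cells. The sources used here name neither the Cre line or promoter behind the deletion nor the strain and age. Tumor and stroma were cut apart by laser capture from paraffin-embedded tissue, 50 ng of RNA were amplified, and each sample pooled 2 tumors of 1 mouse. Whether a tumor and a stroma sample of the same number came from the same mouse is not stated. The values are log2 signals made by robust multi-array average, so a difference of 1 is a doubling, and a level of 1 gene cannot be set against that of another. In such bulk samples fewer cells of a type and less RNA per cell cannot be told apart.

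NOS2 is the inducible nitric oxide synthase, which makes nitric oxide from arginine and is switched on by interferon-gamma and bacterial products in macrophages and in gut epithelium. DUOX2 and NOX1 are NADPH oxidases of the epithelium that release hydrogen peroxide and superoxide toward the lumen, and each needs a partner, DUOXA2 and NOXO1. The phagocyte oxidase is built on the membrane protein encoded by Cybb and needs the cytosolic organizer encoded by Ncf1, while GPX2 is a selenium-dependent peroxidase of the gut epithelium that reduces hydroperoxides with glutathione.

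The promoters of 7 of the 8 genes were found in the RefSeq table of assembly GRCm38.p6, each as the 250 bases before and the 50 bases after the start of the gene. Those of Cybb and Ncf1 are shown because they alone among the 7 held matches to the letters searched, and those of Duox2 and Nox1 because these are the epithelial oxidases described first. Capitals mark the matches, and all sequences run 5′ to 3′ along the strand of the gene.
Cybb: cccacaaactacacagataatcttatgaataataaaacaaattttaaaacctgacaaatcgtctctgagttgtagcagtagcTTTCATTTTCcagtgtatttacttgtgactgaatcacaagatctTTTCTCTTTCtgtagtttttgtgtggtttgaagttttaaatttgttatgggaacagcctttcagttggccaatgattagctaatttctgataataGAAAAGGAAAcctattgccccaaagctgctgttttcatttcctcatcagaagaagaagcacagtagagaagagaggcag
Ncf1: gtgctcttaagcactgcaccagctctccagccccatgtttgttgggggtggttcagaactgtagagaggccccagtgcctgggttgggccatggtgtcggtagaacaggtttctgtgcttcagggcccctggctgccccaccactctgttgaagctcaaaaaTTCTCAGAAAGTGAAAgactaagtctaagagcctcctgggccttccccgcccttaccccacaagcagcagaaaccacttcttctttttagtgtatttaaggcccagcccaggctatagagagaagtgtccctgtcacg
Duox2: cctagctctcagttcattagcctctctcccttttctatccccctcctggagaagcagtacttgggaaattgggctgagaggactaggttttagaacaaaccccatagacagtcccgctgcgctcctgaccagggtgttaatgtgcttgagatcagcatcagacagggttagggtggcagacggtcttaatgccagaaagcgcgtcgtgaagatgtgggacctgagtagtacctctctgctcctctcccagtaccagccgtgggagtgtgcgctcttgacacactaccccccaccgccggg
Nox1: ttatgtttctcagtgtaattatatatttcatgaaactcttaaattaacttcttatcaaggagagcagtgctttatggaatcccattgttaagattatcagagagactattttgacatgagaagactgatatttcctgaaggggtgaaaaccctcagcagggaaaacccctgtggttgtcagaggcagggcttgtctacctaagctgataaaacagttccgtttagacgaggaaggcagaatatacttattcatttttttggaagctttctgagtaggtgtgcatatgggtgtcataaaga
The Cybb promoter lies at chrX:9469275-9469574 on the minus strand, that of Ncf1 at chr5:134229576-134229875 on the minus strand, that of Duox2 at chr2:122298178-122298477 on the minus strand and that of Nox1 at chrX:134111805-134112104 on the minus strand.

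Both strands were searched for 4 sets of letters. The Cybb promoter held 3 matches to the paired core of the interferon-stimulated response element (GAAA, any 2 letters and GAAA again), which are TTTCATTTTC, TTTCTCTTTC and GAAAAGGAAA. Ncf1 held 1 such match, GAAAGTGAAA, which overlapped its 1 match to the STAT palindrome TTCNNNGAA, TTCTCAGAA. Among 32851 promoters of 300 bases, 3.44% held the paired core and 8.30% TTCNNNGAA. TGACNNNGC, the core of the antioxidant response element, stood in 12.4% and CTTTGA, 1 form of the core of the TCF site, in 16.0%. Neither of these stood in any of the 7. Other forms of the TCF core, such as the CTTTGT held by the Gpx2 and Duoxa2 promoters, were not searched. The promoters of Duox2, Duoxa2, Nox1, Noxo1 and Gpx2 held 0 matches to the 4 sets. Such matches describe letters and not binding. Duox2 and Duoxa2 are neighbours on chromosome 2, and the start sites given in that table are 673 bases apart on opposite strands.

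**Figure D1:**
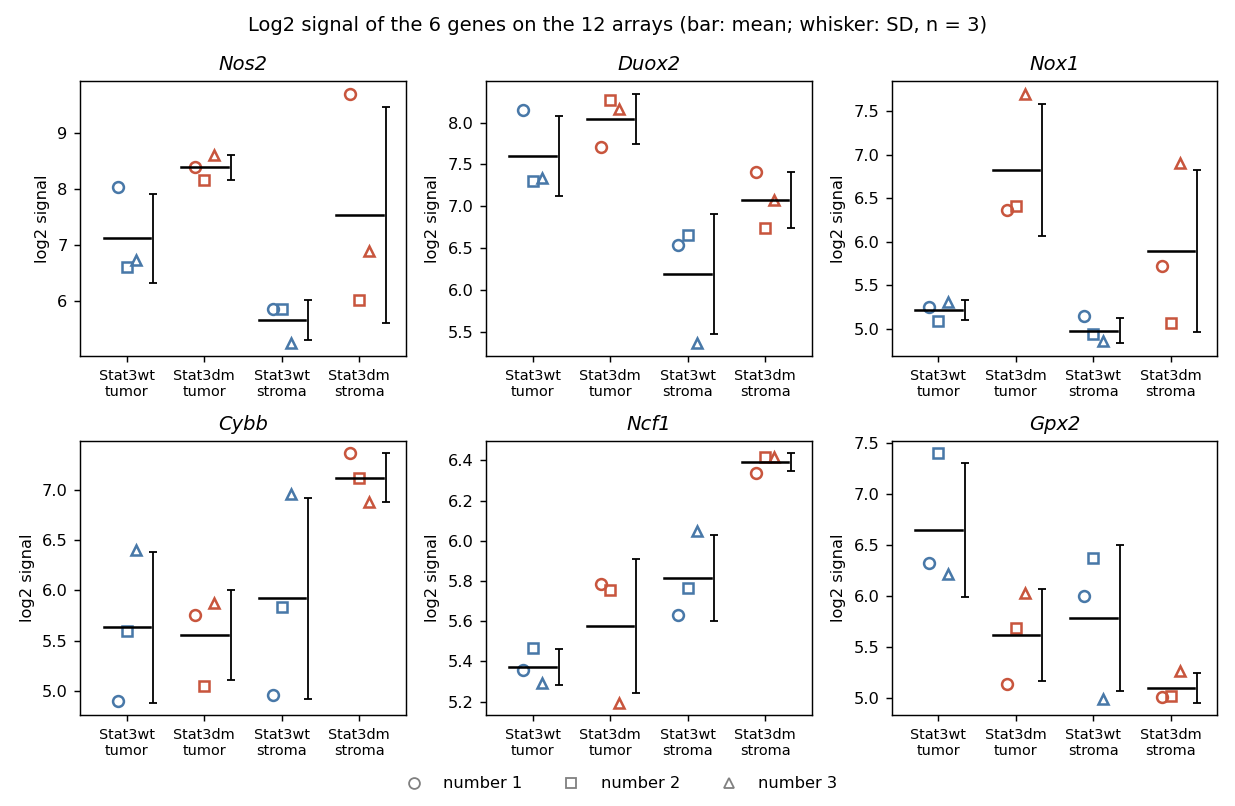
Log2 signal (vertical axis) of Nos2, Duox2, Nox1, Cybb, Ncf1 and Gpx2 in each of the 12 samples, by group; marker shapes give the sample number, bars the mean and whiskers the SD (n = 3), and each panel has its own scale. Nos2 in Stat3dm stroma runs from 6.01 to 9.71, the widest spread of any panel, while Ncf1 in the same group runs from 6.34 to 6.42.

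Nos2 was at 8.03, 6.61 and 6.73 in Stat3wt tumor and at 5.86, 5.87 and 5.25 in Stat3wt stroma. It was at 8.40, 8.17 and 8.60 in Stat3dm tumor and at 9.71, 6.01 and 6.89 in Stat3dm stroma. The order of the means was thus Stat3dm tumor (8.39 ± 0.22, SD, n = 3), Stat3dm stroma (7.54 ± 1.93), Stat3wt tumor (7.12 ± 0.79) and Stat3wt stroma (5.66 ± 0.36). Only the last step of that order, from Stat3wt tumor to Stat3wt stroma, separated 2 neighbouring groups without overlap. Between genotypes all 3 samples with the deletion lay above all 3 wild-type samples in stroma and again in tumor.

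The mean difference of Nos2 between genotypes was 1.88 ± 0.67 (log2, SE) in stroma, a 3.68-fold higher level with the deletion, and it did not pass the limma test after Benjamini-Hochberg adjustment over all genes (unadjusted p = 0.0133, adjusted p = 0.757). In tumor it was 1.27 ± 0.67, or 2.41-fold (adjusted p = 0.823), and 0.36 with array weights. Averaged over both tissues the Nos2 difference was 1.57 ± 0.47 (adjusted p = 0.229). A single sample carried much of the stromal value: without Stat3dm stroma 1, whose Nos2 level of 9.71 was the highest of the 12, the difference was 0.79, and without Stat3dm stroma 2 it was 2.64. The average over tissues was 1.03 without Stat3dm stroma 1 and 0.86 with array weights.

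The same sample stood apart in cell type markers. The summed level of 10 neutrophil markers, on the log2 scale, was 11.98 in Stat3dm stroma 1 against 9.74 and 9.68 in the other Stat3dm stroma samples and 9.20 to 10.04 in Stat3wt stroma. That of 7 markers of mature colonocytes was 11.93 in Stat3dm stroma 1, against 10.15 and 9.64, and 9.07 to 9.49 in Stat3wt stroma. Summed markers of epithelial cells in general stood at 12.03 in Stat3dm stroma 1, against 10.66 and 11.60, and 11.39 to 11.60 in Stat3wt stroma. This lay within the 11.96 to 12.74 of Stat3dm tumor. All 9 tested neutrophil genes and all 7 colonocyte genes lay above 0 in the stromal comparison, with medians of 0.73 and 1.45 and none passing; the neutrophil marker Camp was below the tested range. Summed macrophage markers ran from 9.51 to 9.99 in Stat3dm stroma and from 8.72 to 10.14 in Stat3wt stroma. The part of all these cells in the Nos2 values was not tested.

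Nos2 differed from tumor to stroma by -1.46 ± 0.67 in Stat3wt (adjusted p = 0.292) and by -0.85 ± 0.67 in Stat3dm (adjusted p = 0.771). Without Stat3dm stroma 1 the latter was -1.94, and without Stat3dm stroma 2 it was -0.09. Averaged over genotypes it was -1.16 ± 0.47 (adjusted p = 0.169). The genotype difference of Nos2 did not differ detectably between stroma and tumor (interaction 0.61, 95% confidence interval -1.40 to 2.62), and the interaction was -0.48 without Stat3dm stroma 1.

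Duox2 was at 8.16, 7.31 and 7.34 in Stat3wt tumor and at 6.54, 6.66 and 5.36 in Stat3wt stroma. With the deletion it was at 7.71, 8.27 and 8.17 in tumor and at 7.41, 6.74 and 7.07 in stroma. Every tumor sample thus lay above every stroma sample of its own genotype. The means ran from Stat3dm tumor (8.05 ± 0.30) over Stat3wt tumor (7.60 ± 0.48) and Stat3dm stroma (7.07 ± 0.33) to Stat3wt stroma (6.19 ± 0.72), and only the last 2 did not overlap.

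Duox2 fell from tumor to stroma in the average over genotypes, by 1.19 ± 0.24 on the log2 scale, or 2.29-fold (adjusted p = 0.0302, limma). It was 1 of 2 of the 6 genes that passed in this comparison, against 2.55% of all tested genes. Within genotypes the difference was -1.41 ± 0.34 in Stat3wt and -0.97 ± 0.34 in Stat3dm (adjusted p = 0.185 and 0.366). The call of Duox2 ended when any 1 of Stat3wt tumor 1, Stat3wt tumor 3, Stat3wt stroma 3, Stat3dm tumor 2, Stat3dm tumor 3 or Stat3dm stroma 2 was left out (differences of -1.26 to -0.99, adjusted p = 0.0524 to 0.0941), after quantile normalization (-0.95, adjusted p = 0.0622), and without both Stat3wt tumor 3 and Stat3dm tumor 3, the arrays of widest spread (-1.23, adjusted p = 0.107). All 10 tested epithelial markers lay below 0 in this comparison too, 6 of them passing, with a median of -0.99. Their summed level ran from 11.96 to 12.76 in the 6 tumor samples and from 10.66 to 12.03 in the 6 stroma samples, and its part in the Duox2 difference was not tested.

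Between genotypes Duox2 differed by 0.89 ± 0.34 in stroma, a 1.85-fold higher level with the deletion, which did not pass (adjusted p = 0.845). The groups did not overlap, but the value was 0.47 without Stat3wt stroma 3, the sample with the lowest Duox2 level. In tumor it was 0.45 ± 0.34 (adjusted p = 0.823) and the groups overlapped. The average over tissues was 0.67 ± 0.24 (adjusted p = 0.367), and the interaction was 0.44 with a 95% confidence interval of -0.58 to 1.46.

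Nox1 showed the 4 groups differently. It was at 5.25, 5.09 and 5.31 in Stat3wt tumor and at 5.14, 4.94 and 4.85 in Stat3wt stroma, a narrow band in which tumor and stroma overlapped. With the deletion it was at 6.37, 6.41 and 7.70 in tumor and at 5.72, 5.06 and 6.90 in stroma. In tumor every sample with the deletion lay above every wild-type sample by about 1 log2 unit or more, and in stroma Stat3dm stroma 2 lay within the wild-type range. The order of the means was Stat3dm tumor (6.83 ± 0.76), Stat3dm stroma (5.89 ± 0.93), Stat3wt tumor (5.21 ± 0.11) and Stat3wt stroma (4.98 ± 0.15), with overlap at each step.

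The genotype difference of Nox1 in tumor was 1.61 ± 0.40, or 3.06-fold (unadjusted p = 0.00125, adjusted p = 0.279), and did not pass. With the sample number as a fixed replicate block it passed (limma adjusted p = 0.0345). That block stands beside it because same-numbered tumor samples of the 2 genotypes deviated with r of 0.15 to 0.69. It also joins the stroma samples, where r was -0.04 to 0.15. The block was chosen from the data, since the labels do not say what the numbers share. In stroma it was 0.92 ± 0.40 (adjusted p = 0.960), and 0.41 without Stat3dm stroma 3. Averaged over tissues the Nox1 difference was 1.26 ± 0.29, or 2.40-fold, with the lowest adjusted p of the 6 genes between genotypes (0.0898). That value passed in 5 of 21 alternative analyses, which were array weights (adjusted p = 0.0043), the fixed replicate block (0.0093), the SD of each array as a covariate (0.0309), quantile normalization (0.0432) and the analysis without Stat3dm stroma 2 (0.0463), with differences from 1.01 to 1.47 over all 21. All 7 mature colonocyte markers also lay above 0 in this average, 2 of them passing, with a median of 1.00 (0.50 in tumor alone), and their part in the Nox1 and Duox2 values was not tested. From tumor to stroma Nox1 differed by -0.24 ± 0.40 in Stat3wt and by -0.93 ± 0.40 in Stat3dm (adjusted p = 0.730 and 0.481), and by -0.58 ± 0.29 in the average (adjusted p = 0.242). The Stat3dm value was -0.49 without Stat3dm tumor 3, -0.51 without Stat3dm stroma 2 and -1.44 without Stat3dm stroma 3. The average was -0.37 and -0.38 without the first 2 of these. Its interaction was -0.70 with an interval of -1.92 to 0.52, so the larger value in tumor was not shown to differ from that in stroma.

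**Figure D2:**
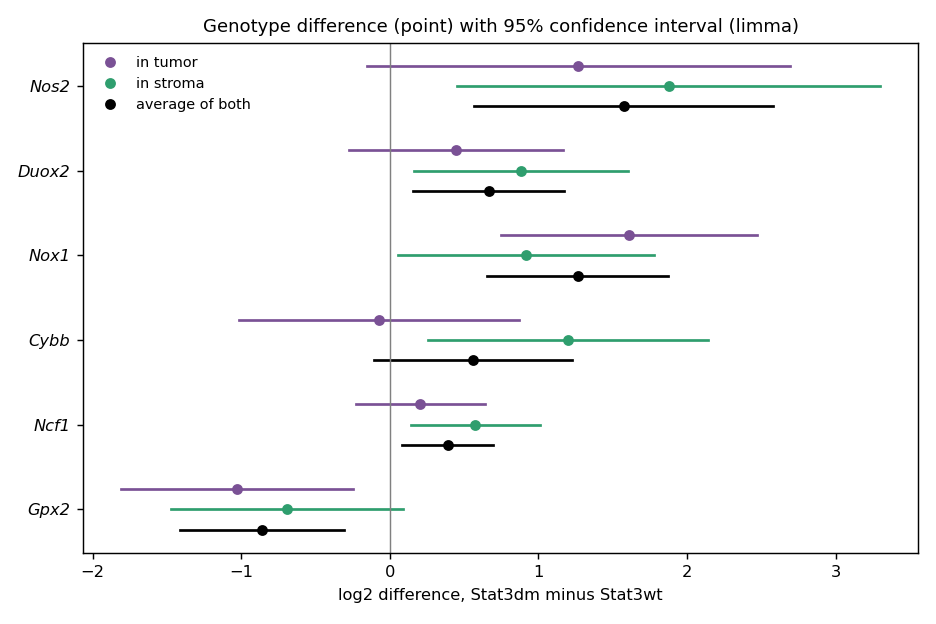
Difference of the log2 signal, Stat3dm minus Stat3wt (horizontal axis), for each of the 6 genes in tumor, in stroma and averaged over both; points are limma estimates and lines 95% confidence intervals. Nos2 and Nox1 lie farthest to the right, with averages of 1.57 and 1.26, and Gpx2 lies to the left at -0.86; none passed after adjustment over all genes.

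Cybb, which encodes the catalytic chain of the phagocyte oxidase, was at 4.90, 5.59 and 6.40 in Stat3wt tumor and at 4.96, 5.83 and 6.96 in Stat3wt stroma. With the deletion it was at 5.75, 5.05 and 5.87 in tumor and at 7.36, 7.12 and 6.87 in stroma. The 3 Stat3dm stroma samples were close together and high, while Stat3wt stroma ran from 4.96 to 6.96 and reached into their range through its sample 3. The means were 7.12 ± 0.24 in Stat3dm stroma, 5.92 ± 1.00 in Stat3wt stroma, 5.63 ± 0.75 in Stat3wt tumor and 5.56 ± 0.45 in Stat3dm tumor, and neighbours in this order overlapped.

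In stroma Cybb differed between genotypes by 1.20 ± 0.44, or 2.29-fold (unadjusted p = 0.0163, adjusted p = 0.800). The value was 0.72 without Stat3wt stroma 1 and 1.72 without Stat3wt stroma 3. In tumor it was -0.08 ± 0.44 (95% confidence interval -1.02 to 0.87), and 0.31 without Stat3wt tumor 3. Averaged over tissues the difference was 0.56 ± 0.31 (adjusted p = 0.714), and 0.32 without Stat3wt stroma 1. The interaction of Cybb, 1.27 ± 0.62, had the lowest unadjusted p of the 6 genes for that term (0.0597, adjusted p = 0.995). From tumor to stroma Cybb differed by 1.56 ± 0.44 in Stat3dm, or 2.95-fold with no overlap (adjusted p = 0.258). With genotype and sample number together as a fixed replicate block the limma adjusted p was 0.0091, a pairing that the labels do not give. In Stat3wt Cybb differed by 0.29 ± 0.44 (adjusted p = 0.701). The block is not given there, since the pair of number 2 had r of -0.004. With array weights the Stat3wt value was 0.90 (limma adjusted p = 0.0222) and with the SD of each array as a covariate 0.98. Without Stat3wt stroma 3 it was -0.23. The tissue difference of Cybb passed in 3 of 21 alternative analyses in Stat3dm and in 1 in Stat3wt. Averaged over genotypes the difference was 0.92 ± 0.31 (adjusted p = 0.111).

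Ncf1, which encodes the organizer subunit p47phox, was at 5.36, 5.47 and 5.29 in Stat3wt tumor and at 5.63, 5.76 and 6.05 in Stat3wt stroma. With the deletion it was at 5.79, 5.75 and 5.19 in tumor and at 6.34, 6.42 and 6.42 in stroma. Ncf1 was the only one of the 6 whose Stat3dm stroma samples all lay above all other 9 samples. In order, the means were 6.39 ± 0.05 in Stat3dm stroma, 5.82 ± 0.21 in Stat3wt stroma, 5.58 ± 0.33 in Stat3dm tumor and 5.37 ± 0.09 in Stat3wt tumor, and only the first step was free of overlap.

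Ncf1 rose from tumor to stroma in the average over genotypes, by 0.63 ± 0.14, or 1.54-fold (adjusted p = 0.0389, limma). Genes that passed upward in this comparison made up 0.848% of all tested genes and genes that passed downward, as Duox2 did, 1.71%. Within genotypes it was 0.44 ± 0.20 in Stat3wt and 0.81 ± 0.20 in Stat3dm (adjusted p = 0.293 and 0.218), both without overlap. The call of Ncf1 ended in 11 of 21 alternative analyses, among them leaving out any 1 of Stat3wt tumor 1, Stat3wt tumor 3, Stat3wt stroma 2, Stat3wt stroma 3, Stat3dm tumor 2, Stat3dm tumor 3, Stat3dm stroma 2 or Stat3dm stroma 3 (0.53 to 0.67, adjusted p = 0.0653 to 0.112) and centring each array on its median (0.56, adjusted p = 0.0581). Of 9 tested macrophage and monocyte markers 7 lay above 0 from tumor to stroma, 1 passed, and their median was 0.64, while Cd163 was below the tested range. All 7 tested T cell markers and all 3 tested B cell markers also lay above 0 there, with medians of 0.61 and 0.96. Of these, 0 T cell markers and 1 B cell marker passed. Of 9 tested neutrophil markers 7 lay above 0, with a median of 0.26 and none passing. The part of all these cell types in the Ncf1 and Cybb values was not tested.

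Between genotypes Ncf1 differed by 0.58 ± 0.20 in stroma, or 1.49-fold, without overlap (adjusted p = 0.746), and leaving out any 1 sample gave 0.48 to 0.69. In tumor it differed by 0.20 ± 0.20 (adjusted p = 0.833), and averaged over tissues by 0.39 ± 0.14 (adjusted p = 0.389). The interaction of Ncf1 was 0.37, with an interval of -0.24 to 0.98. Of the 9 macrophage markers 8 lay above 0 in stroma and 3 in tumor, with medians of 0.34 and -0.18 and none passing. All 7 tested T cell markers and all 3 tested B cell markers lay above 0 in stroma, with medians of 0.50 and 1.14 and none passing. Summed B cell markers ran from 6.74 to 8.21 in Stat3dm stroma and from 6.12 to 6.44 in Stat3wt stroma, with Ms4a1 below the tested range, and their part in the Ncf1 values was not tested.

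**Figure D3:**
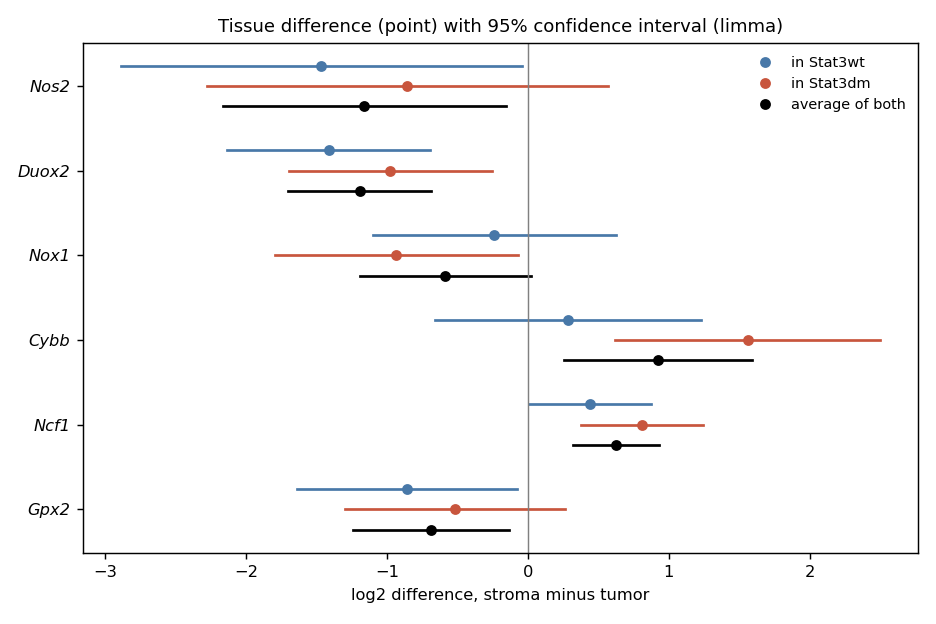
Difference of the log2 signal, stroma minus tumor (horizontal axis), for each of the 6 genes in Stat3wt, in Stat3dm and averaged over both; points are limma estimates and lines 95% confidence intervals. Duox2 at -1.19 and Ncf1 at 0.63 in the average are the ones that passed; Nos2, Duox2, Nox1 and Gpx2 lie left of 0, and Cybb and Ncf1 right of it.

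Gpx2 ran the other way between genotypes. It was at 6.32, 7.40 and 6.22 in Stat3wt tumor and at 5.999, 6.37 and 4.99 in Stat3wt stroma. With the deletion it was at 5.14, 5.69 and 6.03 in tumor and at 5.01, 5.02 and 5.26 in stroma. In tumor all 3 samples with the deletion lay below all 3 wild-type samples, and in stroma Stat3wt stroma 3 was the lowest of the 6. The means ran from Stat3wt tumor (6.65 ± 0.65) over Stat3wt stroma (5.79 ± 0.72) and Stat3dm tumor (5.62 ± 0.45) to Stat3dm stroma (5.10 ± 0.14), and neighbours in this order overlapped.

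The Gpx2 difference with the deletion was -1.03 ± 0.37 in tumor, a 2.04-fold lower level (unadjusted p = 0.0133, adjusted p = 0.616), and -0.65 without Stat3wt tumor 2. In stroma it was -0.69 ± 0.37 (adjusted p = 0.999), -0.40 without Stat3wt stroma 2 and -1.09 without Stat3wt stroma 3. Averaged over tissues it was -0.86 ± 0.26 (adjusted p = 0.232), and from tumor to stroma, averaged over genotypes, -0.69 ± 0.26 (adjusted p = 0.141). Within genotypes the tissue difference of Gpx2 was -0.86 ± 0.37 in Stat3wt and -0.52 ± 0.37 in Stat3dm (adjusted p = 0.274 and 0.735). The former was -0.48 without Stat3wt tumor 2 and -0.46 without Stat3wt stroma 3, and the latter -0.31 without Stat3dm tumor 3. The interaction was 0.34 with an interval of -0.76 to 1.44. Gpx2 is counted among Wnt-responsive genes of the intestinal crypt. All 8 stem cell and Wnt target markers lay below 0 with the deletion as well, with a median of -1.04 averaged over tissues and none passing, and their summed level ran from 8.46 to 8.90 in Stat3dm stroma and from 9.16 to 10.48 in Stat3wt stroma. Their part in the Gpx2 values was not tested. The pseudogene Gpx2-ps1, with a probe set of its own, differed by -0.32 ± 0.22 averaged over tissues (adjusted p = 0.808), and how far the probes tell the 2 sequences apart was not tested.

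**Figure D4:**
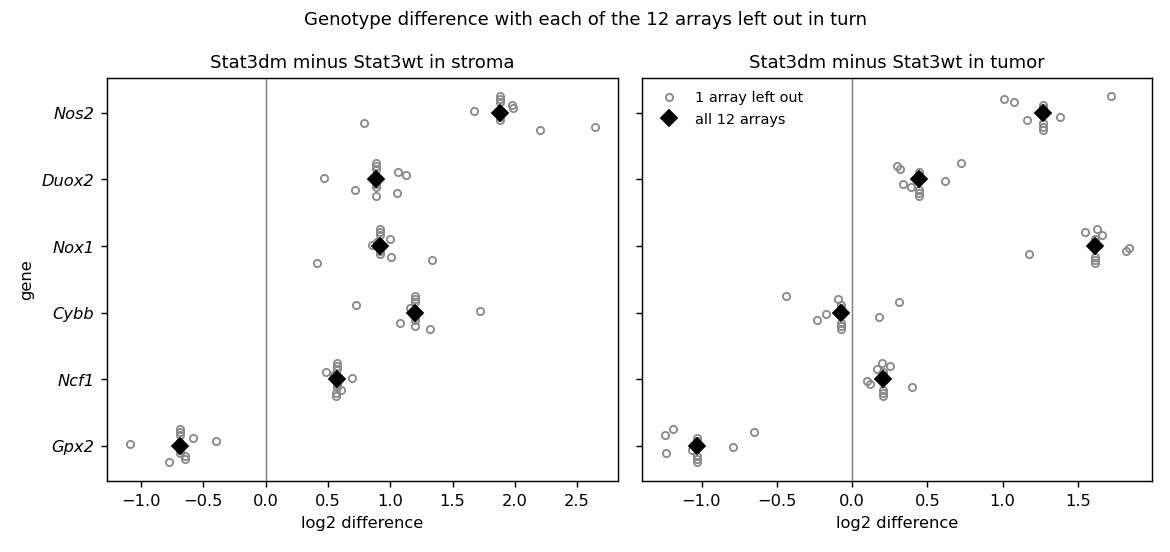
Genotype difference of the log2 signal (horizontal axis) for each of the 6 genes in stroma (left) and in tumor (right); the diamond is the value from all 12 arrays and each open circle the value with 1 array left out. In stroma all values keep the sign of the diamond, and Nos2 moves most, from 0.79 to 2.64; in tumor Cybb crosses 0, from -0.44 to 0.31.

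Read against all genes, 0 of 6 passed between genotypes in stroma, where 0 of 16635 genes (0%) did. An unadjusted limma p under 0.05 was reached there by 5 of the 6, all higher with the deletion, and by 5.07% of all genes. Groups did not overlap for 3 of the 6 and for 10.8% of all genes. In tumor 0 of the 6 and 0.018% of all genes, or 3 genes, passed; with the fixed replicate block 1 of the 6 (Nox1) and 89 genes did. An unadjusted p under 0.05 was reached by 2 of the 6 and 6.26% of all genes, and 3 of the 6 against 9.52% did not overlap. Averaged over tissues 0 of the 6 passed, against 0.283%, and 5 reached an unadjusted p under 0.05, against 8.23%. For the interaction 0 of the 6 and 0% of all genes passed in limma, and an unadjusted p under 0.05 was reached by 0 of the 6 and 2.41% of all genes. The median genotype difference of the 6 was 0.90 in stroma and 0.33 in tumor, beside medians of all tested genes of -0.02 and -0.01. These genes were chosen with results of these data known, so the counts describe them and test nothing about them as a set.

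From tumor to stroma 0 of the 6 and 0% of all genes passed within either genotype; with the fixed replicate block 1 of the 6 (Cybb) and 152 genes passed in Stat3dm. In Stat3wt 4 of the 6 reached an unadjusted limma p under 0.05, against 16.7%, and 3 did not overlap, against 23.9%. In Stat3dm 4 reached it, against 9.68%, and 3 did not overlap, against 13.7%. Averaged over genotypes 5 of the 6 reached it, against 22.3%. The median of the 6 was -0.64 in that average, beside -0.03 over all genes, with 4 genes below 0 and 2 above.

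Across the 12 arrays the genes fell into no single pattern. Nos2 and Duox2 followed each other with a Pearson r of 0.79 over the 12 arrays, and of 0.60 after the group means were taken out. Cybb and Ncf1 had 0.70, which was 0.16 within groups. Ncf1 and Gpx2 had -0.73, or -0.43 within groups, and Duox2 and Cybb -0.46, or -0.72 within groups. Nos2 spread most in Stat3dm stroma (SD 1.93, against 0.22 to 0.79 in the other groups). Its correlations within groups, here and below, thus rest largely on that group, where Stat3dm stroma 1 was highest at 9.71. The arrays share their group structure and their amplification, so the correlations are descriptions.

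The genes whose pattern was most like that of Nos2 over the 12 arrays were Myo15b, an unconventional myosin (r = 0.969), Clcn2, a chloride channel (0.968), and B4galnt2, a glycosyltransferase (0.961). For Duox2 they were the dehydrogenase Dhrs9 (0.976), the choline transporter-like gene Slc44a4 (0.965) and the calcium-activated chloride channel regulator Clca4b (0.964). For Nox1 they were Ppif, the mitochondrial cyclophilin (0.924), the transporter Slc12a8 (0.923) and Nans, the sialic acid synthase (0.921). Cybb ran with the purinergic receptor P2ry13 (0.958), the amino acid transporter Slc43a2 (0.951) and Mpeg1, the pore-forming perforin-2 of phagocytes (0.930). Ncf1 ran with the chemokine receptors Cxcr5 (0.945) and Cxcr4 (0.934) and with Arhgap4 (0.935). Gpx2 ran with Sp5, a transcription factor and Wnt target (0.940), Tmem258 of the oligosaccharyltransferase complex (0.933) and the glutathione transferase Gstm7 (0.903). After the group means were taken out, Cxcr5, Cxcr4 and Arhgap4 had 0.74, 0.67 and 0.72 with Ncf1. The other genes named here then had 0.79 to 0.95 with their own member.

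**Figure D5:**
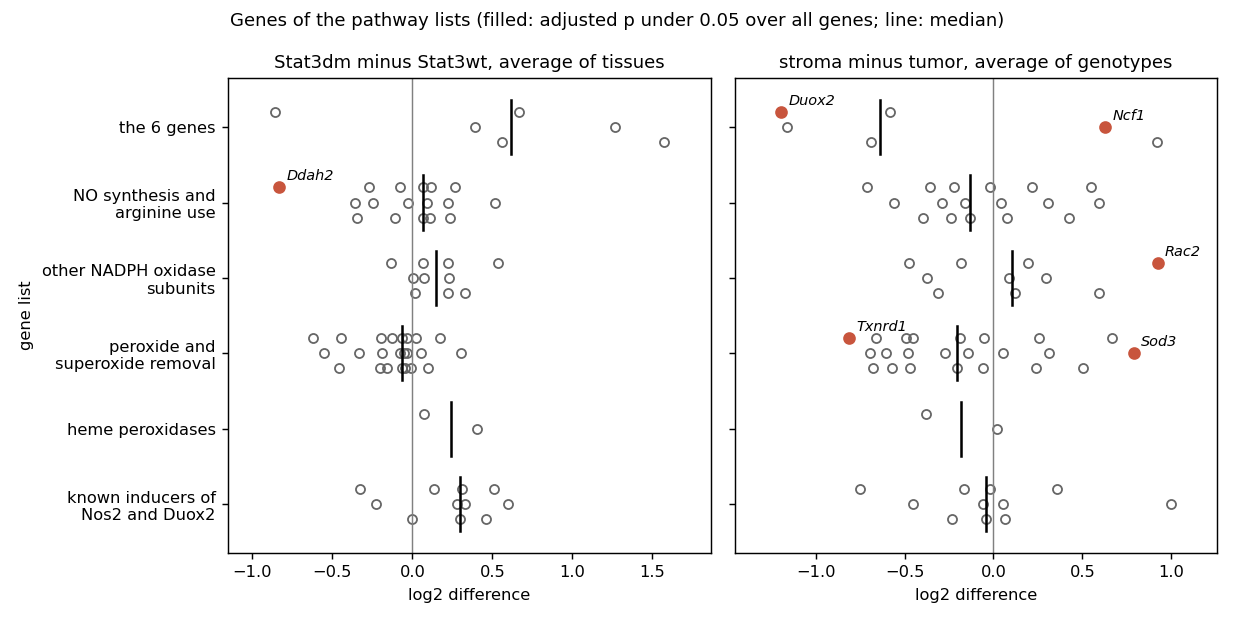
Log2 differences (horizontal axis) of the genes of each list, with the genotype difference averaged over tissues on the left and stroma minus tumor averaged over genotypes on the right; each point is a gene, filled points passed the limma test over all genes, and vertical lines are medians. On the left only Ddah2 is filled; on the right Duox2, Ncf1, Rac2, Sod3 and Txnrd1 are.

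Around Nos2, 17 further genes of nitric oxide synthesis and arginine use were tested, and 1 passed in any comparison. Ddah2, a gene of the dimethylarginine dimethylaminohydrolase family, fell with the deletion in the average over tissues, by 0.83 ± 0.14, or 1.78-fold (adjusted p = 0.0254, limma). Its levels were 5.65 to 6.02 in Stat3dm tumor and 5.78 to 5.87 in Stat3dm stroma, all below the 6.57 to 7.03 of Stat3wt tumor and the 6.26 to 6.60 of Stat3wt stroma. The call ended in 8 of 21 alternative analyses, among them leaving out any 1 of Stat3wt tumor 2, Stat3wt tumor 3, Stat3wt stroma 2, Stat3wt stroma 3, Stat3dm stroma 1 or Stat3dm stroma 3 (adjusted p = 0.0598 to 0.0950). In tumor alone it differed by -0.9996 ± 0.20 (adjusted p = 0.116, and 0.0294 with the fixed replicate block). Its relative Ddah1 differed by 0.52 ± 0.22 in the average and by 0.77 ± 0.31 in tumor (adjusted p = 0.520 and 0.716). The arginine transporter Slc7a2 and argininosuccinate lyase Asl differed by 0.69 ± 0.31 and -0.58 ± 0.26 in stroma (adjusted p = 0.974 for both). The endothelial synthase Nos3 differed there by -0.41 ± 0.20 (adjusted p = 0.996). In tumor Pts, an enzyme of tetrahydrobiopterin synthesis, differed by -0.52 ± 0.33 (adjusted p = 0.823). From tumor to stroma Nostrin, a trafficking protein of nitric oxide synthase, and Gch1, the first enzyme of tetrahydrobiopterin synthesis, differed by -0.71 ± 0.21 and -0.56 ± 0.23 (adjusted p = 0.0772 and 0.167). In the average over tissues 9 of the 17 lay above 0, with a median of 0.06, against 47.4% of all genes above 0.

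Of the other NADPH oxidase subunits and maturation factors 10 of 11 were tested, and 1 passed. Rac2, the GTPase of the leukocyte oxidase, rose from tumor to stroma by 0.92 ± 0.18 averaged over genotypes (adjusted p = 0.0294), in the same direction as Ncf1. The call of Rac2 held in 12 of 21 alternative analyses and ended without any 1 of the 6 samples named for Duox2 or without Stat3dm stroma 3 (0.77 to 0.98, adjusted p = 0.0505 to 0.0903). Ncf4, the p40phox subunit, differed by 0.59 ± 0.18 (adjusted p = 0.0837), Duoxa1, the maturation factor of Duox1, by -0.47 ± 0.20 (adjusted p = 0.188), and Cyba, the partner chain of both the Cybb and the Nox1 product, by -0.19 ± 0.15 (adjusted p = 0.472). In Stat3dm alone Rac2 passed only with the fixed replicate block (adjusted p = 0.0292). In stroma Rac2 differed between genotypes by 0.87 ± 0.26 and Cybc1, which is needed to make the phagocyte oxidase chain, by 0.49 ± 0.18 (adjusted p = 0.557 and 0.811). Ncf4 differed there by 0.39 ± 0.25 (adjusted p = 0.999). Duoxa1 differed by 0.61 ± 0.29 in tumor and by -0.17 ± 0.29 in stroma (adjusted p = 0.797 and 0.999). Nox3 and Cyba differed in tumor by 0.32 ± 0.22 and -0.31 ± 0.22 (adjusted p = 0.823 for both). The median of the 10 was 0.04 in stroma and 0.24 in tumor.

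Around Gpx2, 23 of 26 genes of peroxide and superoxide removal were tested, and 2 passed, both between tissues. The extracellular superoxide dismutase Sod3 rose from tumor to stroma by 0.79 ± 0.18 and the thioredoxin reductase Txnrd1 fell by 0.81 ± 0.19 (adjusted p = 0.0403 and 0.0391). These calls held in 9 and 8 of 21 alternative analyses, and both ended when any 1 sample other than Stat3wt tumor 2, Stat3dm tumor 1 and Stat3dm stroma 1 was left out (adjusted p = 0.0523 to 0.123 for Sod3 and 0.0608 to 0.120 for Txnrd1). Thioredoxin itself, Txn1, differed by -0.68 ± 0.18 (adjusted p = 0.0644). From tumor to stroma, averaged over genotypes, 16 of the 23 lay below 0. An unadjusted limma p under 0.05 was reached there by 12, against 22.3% of all genes, and 2.55% of all genes passed. With the deletion 19 of the 23 lay below 0 in tumor, with a median of -0.17, and 10 in stroma, with a median of 0.05, and none passed. Of all tested genes 48.7% lay above 0 in tumor and 47.2% in stroma. The heme oxygenase Hmox1 differed by -1.11 ± 0.39 and the peroxiredoxin Prdx2 by -0.75 ± 0.27 in tumor, both without overlap (adjusted p = 0.604 and 0.616). In stroma Prdx2 differed by -0.49 ± 0.27 (adjusted p = 0.999). Averaged over tissues Hmox1 differed by -0.46 ± 0.28 and Prdx2 by -0.62 ± 0.19 (adjusted p = 0.760 and 0.238). Sod3 differed between genotypes by -0.47 ± 0.26 in stroma (adjusted p = 0.999). Nqo1, a target of the transcription factor NRF2, differed by -0.42 ± 0.29 in stroma and the lipid peroxidase Gpx4 by -0.41 ± 0.17 in tumor (adjusted p = 0.999 and 0.751). Of the heme peroxidases Lpo and Epx were tested and 0 passed. Lpo differed in tumor by 0.56 ± 0.24, without overlap (adjusted p = 0.771), while Mpo, the enzyme of neutrophil granules, was below the tested range.

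Known inducers of Nos2 and Duox2 were represented by 11 tested genes of 14, and 0 passed in any of the 7 comparisons. Between genotypes 9 of the 11 lay above 0 in stroma, with a median of 0.42, and 7 in tumor, with a median of 0.24. The highest value in stroma, 1.18, was that of Il1b, the gene of interleukin-1 beta, which lay below 0 in tumor. Averaged over tissues Il1b differed by 0.31 ± 0.55 (adjusted p = 0.950). An unadjusted p under 0.05 was reached by 1 gene in each, Irf1 above 0 in stroma and the interferon-gamma receptor chain Ifngr2 below 0 in tumor (-0.62 ± 0.24, adjusted p = 0.684). Rela, an NF-kB subunit, and Il17ra, an interleukin-17 receptor chain, differed in tumor by -0.66 ± 0.32 and 0.36 ± 0.22 (adjusted p = 0.816 and 0.823). Irf1, a transcription factor of the interferon response that acts on the Nos2 promoter, differed in stroma by 0.91 ± 0.23, without overlap (unadjusted p = 0.00146, adjusted p = 0.420). Ifng, the gene of interferon-gamma, differed by 0.53 ± 0.28 and Nfkbiz, which is induced by interleukin-1 and interleukin-17, by 0.62 ± 0.31 (adjusted p = 0.999 for both). Il22ra1, the receptor chain through which interleukin-22 acts on epithelium, differed from tumor to stroma by -0.75 ± 0.22 (adjusted p = 0.0823), the same side as Duox2. Ifngr2 differed between the tissues by -0.45 ± 0.17 (adjusted p = 0.142). Il22 itself was below the tested range.

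The Stat3 probe set did not separate the genotypes: its difference was 0.00 ± 0.32 in stroma and -0.27 ± 0.32 in tumor (adjusted p = 0.999 and 0.858). Its position relative to the deleted part is unknown here, and it therefore checks nothing. Array medians lay between 4.20 and 4.43 and the SD of an array between 1.60 and 1.91. The number of arrays limits the precision of every value above.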

How the data were processed

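Gene expression was measured on 12 single-colour arrays, 3 for each of 4 groups. The deposited log2 values are signals of 41345 probe sets that the authors made by RMA; the submitters' processing notes name Affymetrix Expression Console 1.3.1. The sources used here do not give their genome build. Of these probe sets 23521 had 1 gene symbol in the platform annotation, 1814 several and 16010 none. For 1082 genes with several probe sets the one with the highest mean was used. Genes were fitted in limma 3.58.1 (R 4.3.3) with 4 group means, without a block, and 7 contrasts were tested by eBayes with Benjamini-Hochberg adjustment over 16635 genes at 0.05. All p-values are two-sided limma values. The fit was run on simulated data with noise drawn independently for each gene and array. That run lacks the deviations that genes of an array share, so it says nothing about how stable the calls are here. The members, lists and tests were chosen with earlier results of these data known. Genes named beside the members are the 3 of each list with the smallest p in each of 3 contrasts (both genotype contrasts and the averaged tissue contrast), any that passed, and the 3 most like each member. Among the last, immune receptor segments, small RNAs, predicted genes and odorant or vomeronasal receptors were passed over. Il1b was named in addition, as the inducer with the highest genotype difference in stroma. Alternatives covered normalization, the filter, probe sets, array spread, replicate blocks and each array left out. Separate mice are stated only as 1 mouse per sample. Same-numbered samples deviated from their group means with r of -0.004 to 0.51 between tissues in Stat3wt, 0.12 to 0.30 in Stat3dm, 0.15 to 0.69 between genotypes in tumor and -0.04 to 0.15 in stroma. The blocked value is given beside results of the comparisons where every pair exceeded 0.1 (tissue in Stat3dm, genotype in tumor) where it changes a call. For genotype the block is the number over all 4 groups. For tissue and the interaction it is genotype and number together. Such a pairing is a hint from the data, not from the labels. Differently numbered pairs between tissues in Stat3dm had r of -0.293 to 0.125, against a lowest same-numbered value of 0.123. The 0.69 between genotypes in tumor came from number 3, the 2 arrays of widest spread. Promoters and neighbours are from RefSeq, GRCm38.p6.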

Additional observations from a re-analysis of the deposited data

How the results depend on the processing

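Over 21 alternative analyses the sign of most differences of the 6 genes held; of 42 gene and comparison pairs, 5 turned in sign under at least 1 alternative. Cybb between genotypes in tumor was 0.031 after quantile normalization, 0.32 with the SD of each array as a covariate, 0.16 with array weights, 0.15 without the 2 arrays of widest spread (an alternative chosen after seeing the data) and -0.44 to 0.31 with 1 array left out. The interaction of Gpx2 was -0.22 with array weights and -0.059 to 0.63 with 1 array left out, and that of Nos2 -0.48 to 1.37 with 1 array left out. In Stat3wt the tissue difference of Nox1 was 0.24 with the SD covariate, and that of Cybb -0.23 to 0.76 with 1 array left out. The cause was not tested. Array weights also moved values that had not passed by over 1.5 times without turning them. Between genotypes Duox2 moved to 0.58 in stroma, 0.16 in tumor and 0.37 averaged. Nos2 moved to 0.36 in tumor and 0.86 averaged, and Ncf1 in tumor to 0.35. From tumor to stroma Cybb moved to 0.90 and Gpx2 to -0.31 in Stat3wt, and Nox1 to -0.46 in Stat3dm. The averaged tissue differences moved to 1.39 for Cybb, -0.42 for Gpx2 and -0.37 for Nox1. The interactions of Nos2 and Nox1 moved to 1.00 and -0.17. Of these values, those of Cybb in Stat3wt and averaged then passed (limma adjusted p = 0.0222 and 4.2e-04).

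Counts of genes passing depended more on the setting. Given in the order genotype in stroma, genotype in tumor, genotype averaged, tissue in Stat3wt, tissue in Stat3dm and tissue averaged, the counts were 0, 3, 47, 0, 0 and 425. Array weights, which ran from 0.258 to 7.80 and whose estimation stopped before its tolerance was met, gave 164, 1579, 945, 3963, 727 and 3834, and 4 for the interaction. With the SD covariate the genotype counts were 13, 14 and 166, and the tissue counts 114 in Stat3dm and 264 averaged. Quantile normalization gave 1 for genotype in stroma, 90 for genotype averaged and 33 for tissue in Stat3dm, and median centring gave 17 and 168 for the averaged comparisons. Without the 2 widest arrays they were 21 and 0. With a fixed replicate block (the number for genotype, genotype and number together for tissue) the 6 counts were 28, 89, 292, 138, 152 and 1876. A random replicate block of genotype and number (correlation 0.234) gave 13 for genotype averaged and 5, 62 and 1648 for tissue. The labels do not say what the numbers share. With 1 array left out the ranges were 0 to 2, 0 to 7, 16 to 69, 0 to 8, 0 to 22 and 0 to 1296. For tissue averaged the count was 0 without Stat3wt stroma 3, Stat3dm tumor 2 or Stat3dm tumor 3, 1 without Stat3wt tumor 1, 6 without Stat3dm stroma 2 and 45 without Stat3wt tumor 3.

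Of the 6 genes, the number passing was 0 in each genotype and single-genotype comparison and 2 for tissue averaged. With array weights it was 2 for genotype in tumor, 3 for genotype averaged, 4 and 3 for tissue in Stat3wt and Stat3dm and 4 for tissue averaged. The fixed replicate block gave 1, 2, 1, 1 and 6 for these. The SD covariate gave 1 for genotype averaged and 1 for tissue in Stat3dm. Quantile normalization gave 1 for genotype averaged and 1 for tissue averaged, median centring 1 and the removal of the 2 widest arrays 0 for tissue averaged. With 1 array left out the number was 0 to 1 for genotype averaged and 0 to 3 for tissue averaged. The calls of Rac2, Sod3 and Txnrd1 were lost in 9, 12 and 13 alternatives.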
